A study of Caenorhabditis elegans with 2 samples.

Results

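The 5 strongest nuclear regions bound by NPAX-4 that had no annotated noncoding gene within 500 bp of the summit lay nearest to 5 protein-coding genes: K12H4.5, the enzyme genes ears-2 and idhg-1, the protease gene nas-30 and the channel gene lgc-26. They were selected on their measured signal in the deposited list of reproducible peaks and on the annotation around their summits. Signal, rank and the lack of a noncoding neighbour are therefore given as a description, with no test. The 5 regions were 5 of the 333 nuclear reproducible peaks, and the 5 genes were 5 of 19985 annotated protein-coding genes. Among the 25 highest regions, the 5 stood beside 15 nuclear peaks that did have a noncoding gene within 500 bp and 5 mitochondrial peaks.

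The samples were 2 biological replicates of 1 condition, whole hermaphrodite late embryos of the Caenorhabditis elegans strain OP493, taken 4 h after synchronisation by egg bleaching. The genotype was unc-119(tm4063) III; wgIs493, a transgene that carries NPAX-4 with a C-terminal GFP-FLAG tag. Chromatin was sheared by sonication and recovered with an anti-GFP antibody, per the sample descriptions; the antibody field of the same labels names npax-4 instead. There was no second genotype, stage or treatment, so every comparison is between replicates or between regions. The promoter of the transgene is not given in the sources used here, and a region's signal is summed over all cells of the embryo.

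PAX proteins are transcription factors that bind DNA through a paired domain and act in the development of many animal tissues. The npax genes of C. elegans are named after the N-terminal part of that domain. A ChIP-seq peak marks DNA that came down with the tagged protein more often than in a control, through direct contact or through other proteins. Its summit is the base where the signal is highest. Genes that point away from each other (divergent genes) share the stretch between their 5′ ends, which can hold the promoters of both. Tandem repeats are stretches in which one unit follows itself many times, and short reads from them can match several places.

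The sequences below show what lay under the summits of 4 members. The K12H4.5, ears-2 and idhg-1 lines come from single-copy DNA near gene starts, and the lgc-26 lines are neighbouring units of the tandem repeat that held its summit. All are on the plus strand of WBcel235 (ce11), 5′ to 3′, read from the RefSeq assembly. In the K12H4.5, ears-2 and idhg-1 lines, capitals mark GCGC and, in idhg-1, also CACGTG. In the lgc-26 lines, capitals mark the 10 positions at which the units differ, and the other 162 were the same. The K12H4.5 line is chrIII:8043902-8044052, 75 bases on each side of the summit. The ears-2 line is chrIV:390469-390559, the whole 91 bases between the 5′ ends of ears-2 and uncp-18, with the summit at base 11. The idhg-1 line is chrIII:4568675-4568796, which ends at the base before the annotated start of idhg-1 and has the summit at base 76. The lgc-26 units are chrV:265385-265556, with the summit at base 51, and chrV:265557-265728.
K12H4.5: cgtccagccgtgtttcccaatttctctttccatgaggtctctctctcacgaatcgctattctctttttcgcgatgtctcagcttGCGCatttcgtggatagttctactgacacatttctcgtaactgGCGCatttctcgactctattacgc
ears-2: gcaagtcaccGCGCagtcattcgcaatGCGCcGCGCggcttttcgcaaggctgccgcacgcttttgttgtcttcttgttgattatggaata
idhg-1: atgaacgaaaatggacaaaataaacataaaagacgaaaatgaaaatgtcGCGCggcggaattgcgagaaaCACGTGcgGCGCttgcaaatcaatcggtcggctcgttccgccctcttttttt
lgc-26 unit 1: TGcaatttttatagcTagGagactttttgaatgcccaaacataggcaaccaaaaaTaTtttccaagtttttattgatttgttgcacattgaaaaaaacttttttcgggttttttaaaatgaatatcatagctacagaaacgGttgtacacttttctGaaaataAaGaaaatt
lgc-26 unit 2: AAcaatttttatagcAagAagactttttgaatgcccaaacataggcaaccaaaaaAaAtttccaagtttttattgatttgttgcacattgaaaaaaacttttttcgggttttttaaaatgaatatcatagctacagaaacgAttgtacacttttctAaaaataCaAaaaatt

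The strongest nuclear peak in the list of reproducible peaks lay 510 bp upstream of K12H4.5 (WBGene00019680). This gene is on the plus strand of chromosome III at 8044487-8044780, and RefSeq lists its product as uncharacterized. The region of the peak spanned 8043810-8044139, 330 bp, with the summit at 8043977. The signal was 571, rank 3 of 354 regions in the list cut at an irreproducible discovery rate (IDR, a measure of how well ranks repeat between replicates), where only mitochondrial regions ranked above it. In replicate 1 the region was 283 bp wide with a signal of 279, rank 2 of 19207. Rank 1 there was another nuclear peak, with noncoding genes within 500 bp and a signal of 284.9. In replicate 2 it was 310 bp wide with a signal of 290.3, rank 3 of 18799. The peak was thus among the 3 highest regions of each list. The replicates' signals averaged 285 ± 7.98 (SD, n = 2), and their summits were 22 bp apart.

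The joint relaxed list, called on both replicates together and holding 12454 regions, gave all 5 members the region, summit, signal and rank they have in the IDR list. It was labelled as peaks and background, so a region of the joint list need not be an enriched site. Signal is the value the authors' peak caller gave each region, on a scale that is not stated. Ranks are taken within a list. Means, SDs and ratios across lists also carry any difference in scale between the lists. The IDR list ran from 76.4 to 1202, with a median of 115. All 5 members had the highest −log10 q value of their list, 1.35, which they shared with 296 other regions of the IDR list. That value therefore does not order them.

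The ears-2 and idhg-1 peaks sat almost on the annotated starts of nuclear genes for mitochondrial enzymes. ears-2 (WBGene00001338) encodes a mitochondrial glutamyl-tRNA synthetase, which loads glutamate onto tRNA, and lies on the minus strand of chromosome IV at 388686-390468. Its region spanned 390356-390619, 264 bp, with the summit at 390479, 11 bp upstream of the 5′ end. The signal was 311, rank 14. Replicate 1 gave a 220 bp region with a signal of 167, rank 10, and a summit 18 bp upstream of the 5′ end. Replicate 2 gave a 194 bp region with a signal of 141, rank 20, and a summit 44 bp upstream. All 3 summits fell inside the 91 bp printed above, and the mean signal of the replicates was 154 ± 17.8 (SD, n = 2).

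idhg-1 (WBGene00009440) encodes a subunit of the NAD-dependent isocitrate dehydrogenase of the citric acid cycle and lies on the plus strand of chromosome III at 4568797-4571865. Its region spanned 4568649-4568839, 191 bp, the narrowest of the 5, with the summit at 4568750, 47 bp upstream of the 5′ end. The signal was 272, rank 23. Replicate 1 gave a 148 bp region with a signal of 149.6, rank 15, and a summit 49 bp upstream. Replicate 2 gave a 450 bp region with a signal of 121, rank 34, and a summit 69 bp upstream, and a further overlapping region with a signal of 21.4, rank 3747. The mean signal of the replicates was 135 ± 20.3 (SD, n = 2). RefSeq places the 5′ end of idhg-1 216 bp further into the gene than Ensembl does, which puts the summit 263 bp upstream of it.

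The nas-30 and lgc-26 peaks lay kilobases away from the genes they are named for. nas-30 (WBGene00003548), a member of the astacin family of zinc metalloproteases, starts at 938483 on the plus strand of chromosome I. The region spanned 933370-933666, 297 bp, with the summit at 933517, 4966 bp upstream of that start and just inside the 5 kb limit used to name it. The signal was 306, rank 15. Replicate 1 gave a 178 bp region with a signal of 169, rank 9, and replicate 2 a 146 bp region with a signal of 163, rank 14. The summits of the replicates were 1 bp apart, the closest of the 5 members, and the signals averaged 166 ± 3.85 (SD, n = 2).

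lgc-26 (WBGene00021981), annotated by RefSeq as an acetylcholine receptor-like protein of the ligand-gated ion channel group, starts at 268307 on the plus strand of chromosome V. Its region spanned 265210-265659, 450 bp, with the summit at 265435, 2872 bp upstream. The signal was 261, rank 25. Replicate 1 gave the same region and summit with a signal of 139, rank 18. Replicate 2 gave a 450 bp region with its summit 4 bp away and a signal of 98.04, rank 63. The mean signal of the replicates was 119 ± 29.0 (SD, n = 2), the largest spread of the 5. lgc-26 also had a second, overlapping reproducible region, at 265569-266018 with a signal of 118, rank 169. Replicate 1 gave the same second region, with its summit at 265794 as in the IDR list and a signal of 76.8, rank 104. Replicate 2 gave an overlapping region at 265504-265953, with its summit at 265729 and a signal of 40.7, rank 347.

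**Figure D1:**
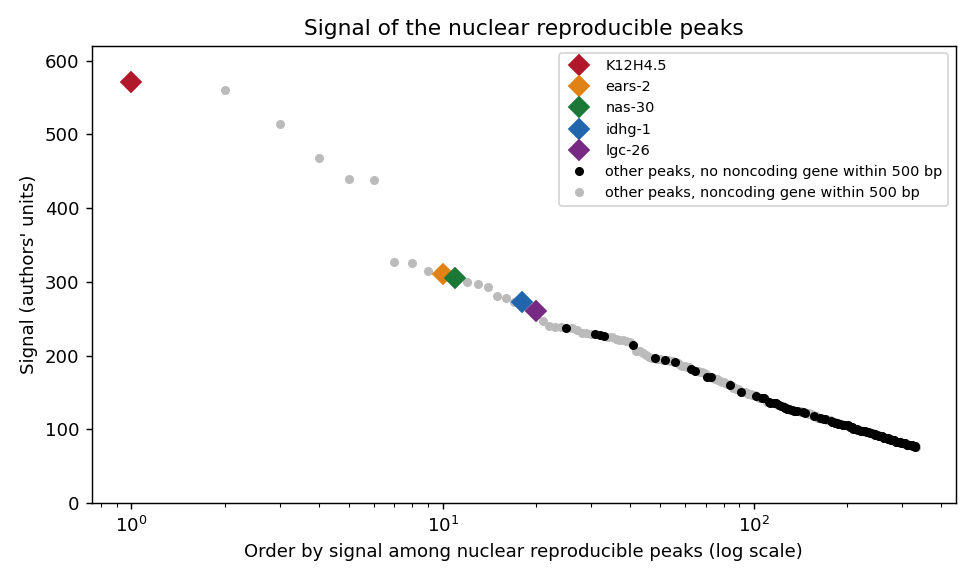
Signal in the authors' units (y axis) against the order by signal of the 333 nuclear reproducible peaks (x axis, log scale). Diamonds are the 5 members, black points the other peaks with no noncoding gene within 500 bp, and grey points those with one. The members hold places 1, 10, 11, 18 and 20, and the grey points fill the places between them.

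K12H4.5 stood apart from the other members, at 571 against 261 to 311. In order of signal among nuclear peaks the members were numbers 1, 10, 11, 18 and 20. The nuclear peaks without a noncoding gene that came next below lgc-26 were nearest to K05C4.2, with a signal of 238 and rank 30, atx-2, with 229 and rank 36, and M01F1.9, with 228 and rank 37. The step from the lowest member to the nearest peak outside was thus 261 against 238. Of those 3 peaks, the atx-2 summit lay between divergent genes, 82 bp upstream of atx-2, and the other 2 lay inside a gene.

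Both replicates placed all 5 members high. Ranks were 2 to 18 of 19207 in replicate 1 and 3 to 63 of 18799 in replicate 2. All 5 overlapped one of the 354 highest regions of each replicate. Of the other 328 nuclear reproducible peaks, 72% did so, and since the members were chosen for signal in the list made from these replicates, nothing is read from the difference. The ratio of replicate 1 to replicate 2 signal was 0.961 for K12H4.5, 1.18 for ears-2, 1.03 for nas-30, 1.24 for idhg-1 and 1.42 for lgc-26. The other nuclear peaks had a median ratio of 1.11, with quartiles of 0.917 and 1.31 (327 peaks matched in both replicates). Only lgc-26 lay above that upper quartile, and no member lay below the lower one. The joint signal was 1.00 times the sum of the replicates' signals for K12H4.5, 1.01 times for ears-2 and for idhg-1, 0.921 times for nas-30 and 1.10 times for lgc-26. The other peaks had a median of 1.00.

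**Figure D2:**
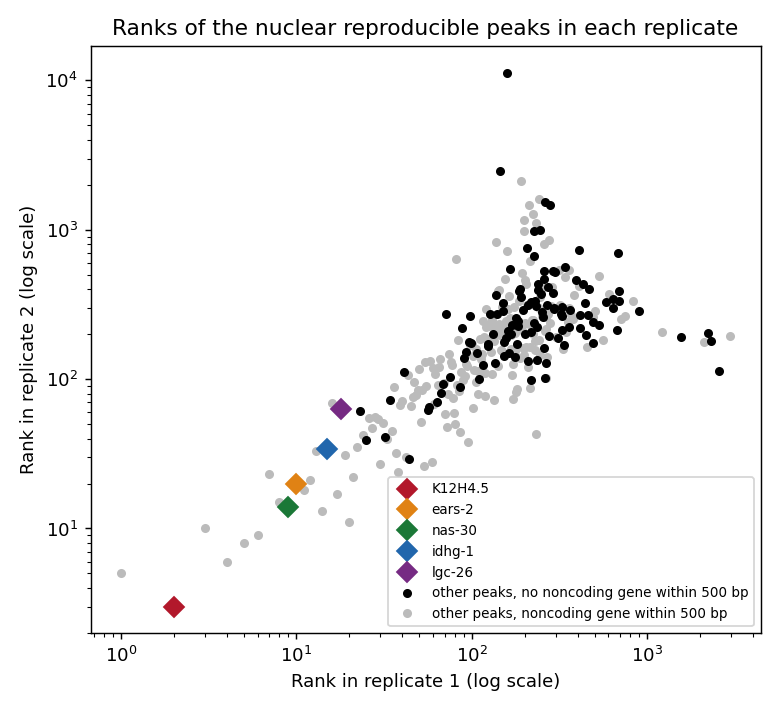
Rank in replicate 1 (x axis) against rank in replicate 2 (y axis), both on log scales, for the nuclear reproducible peaks found in both replicates. Diamonds are the 5 members, black points the other peaks with no noncoding gene within 500 bp and grey points those with one. K12H4.5 is at ranks 2 and 3, and lgc-26, at 18 and 63, has the lowest rank of the members in both replicates.

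The summits repeated to within 26 bp at every member. The replicates' summits were 22 bp apart at K12H4.5, 26 bp at ears-2, 1 bp at nas-30, 20 bp at idhg-1 and 4 bp at lgc-26, a median of 20 bp. Over the other nuclear peaks the median was 29 bp, with quartiles of 10 and 57 bp, and over the other peaks without a noncoding gene it was 26 bp. The members' median lies within those quartiles. Most members were narrower than the bulk of the list: 4 of 5 were narrower than 450 bp, against 30 of the 328 other nuclear peaks and 5 of the 120 other peaks without a noncoding gene. The lists are made up largely of 450 bp regions (90.1% of the IDR list and 99.7% of the joint list), and lgc-26 is the member with that width. Narrow width was not particular to the members: nearly all of the 15 other nuclear peaks among the 25 highest regions were also narrower than 450 bp. Width comes from the same call as signal, so this too is a description.

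**Figure D3:**
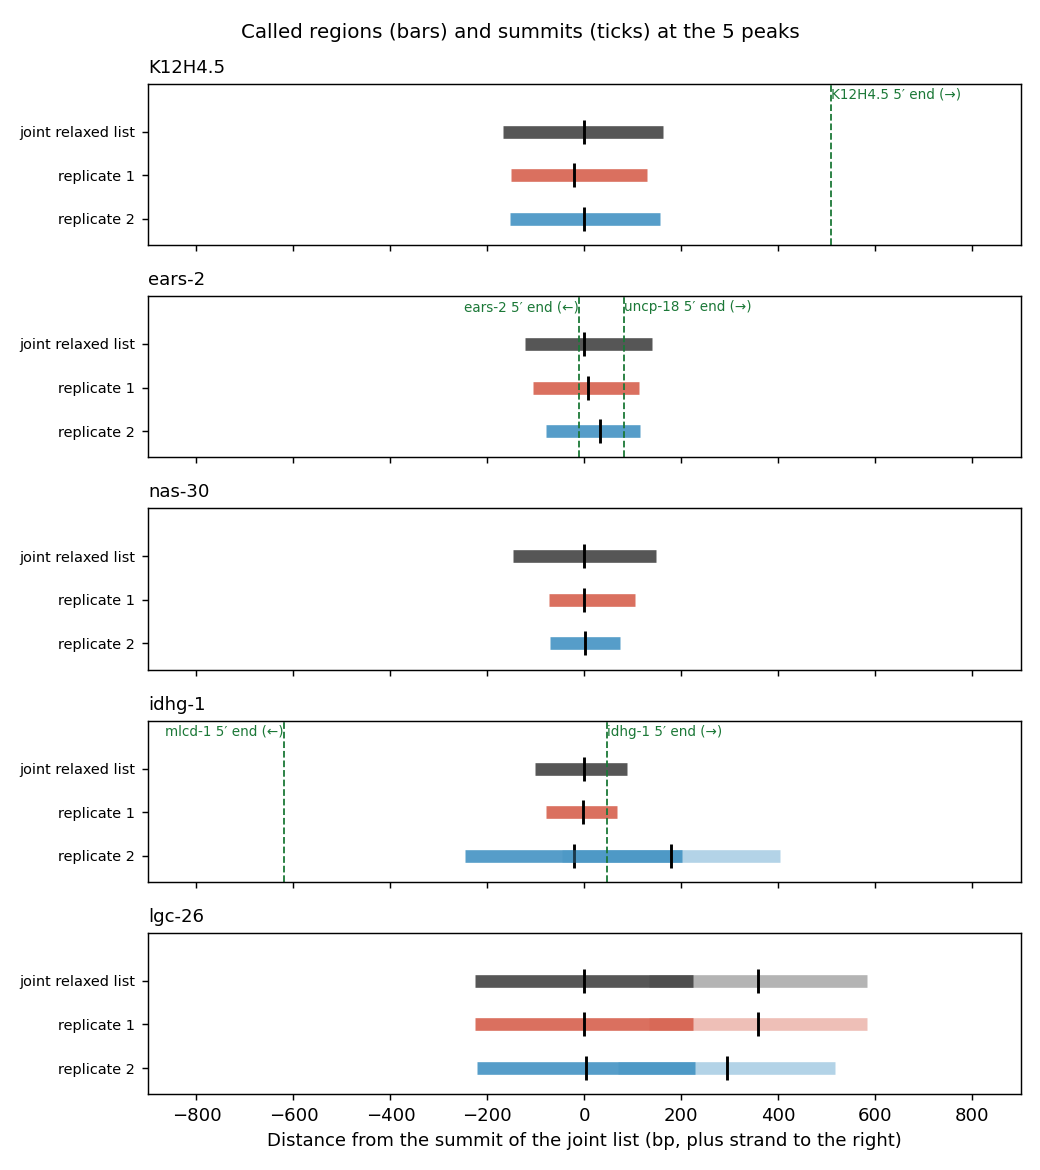
Called regions (bars) and summits (black ticks) of the joint list and of each replicate at the 5 members, against distance from the joint summit in bp. Paler bars are further regions in the window, and green dashed lines are annotated 5′ ends with an arrow for the direction of the gene. The summits of the 3 lists nearly coincide at each member, the ears-2 regions cover 2 gene starts, and lgc-26 has a second overlapping region in every list.

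Beside the peaks themselves few regions lay near the member genes, and outside lgc-26 all of these had low signal. Within 5 kb of the 5′ end, the peak itself included, the joint list held 1 region at K12H4.5, 3 at ears-2, 2 at nas-30, 2 at idhg-1 and 3 at lgc-26. With overlapping regions reduced to the strongest, the members had a median of 2 regions, against 1 over all 19973 nuclear protein-coding genes (quartiles 0 and 2). The members have at least 1 region by selection and the other genes may have 0, so nothing is read from these medians. The strongest of the further joint regions away from lgc-26 was at ears-2, 4930 bp downstream of the 5′ end and past the end of the gene, with a signal of 45.5, rank 1827. It was called in replicate 2, with a signal of 32.9 and rank 590, and not in replicate 1 within this distance. The ears-2 peak had 6.83 times its joint signal. K12H4.5 had no further region in the joint list or in replicate 1, and 1 in replicate 2 with a signal of 17.9, rank 7786. At nas-30, near whose start the joint list held 1 region 1482 bp downstream, the signal was 29.6, rank 11143, and no region of either replicate covered the 5′ end itself. At idhg-1 the further joint region, 4851 bp upstream, had a signal of 35.4, rank 5732. The −log10 q values of these further joint regions were 0.243 at ears-2, 0.022 at nas-30 and 0.062 at idhg-1, against 1.35 for the members.

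All 5 summits lay in intergenic DNA between divergent genes. K12H4.5 faced K12H4.6 on the minus strand, another uncharacterized gene, whose 5′ end was 1102 bp from the summit, in an intergenic stretch of 1611 bp. ears-2 faced uncp-18, whose product RefSeq lists as Syntaxin-binding protein 1, a protein of synaptic vesicle fusion, across 91 bp, and the summit was 81 bp from its start. idhg-1 faced mlcd-1, which encodes the mitochondrial enzyme malonyl-CoA decarboxylase, across 666 bp, with its 5′ end 620 bp from the summit. nas-30 faced prhg-1, named by RefSeq as a member of the pleckstrin homology domain-containing family G, across 11566 bp, and its 5′ end was 6601 bp from the summit. lgc-26 faced nhr-204, a nuclear hormone receptor gene, across 9476 bp, and its 5′ end was 6605 bp from the summit. The files cannot tell which gene of a pair, if any, a region serves; each peak is named for the nearer 5′ end.

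A divergent layout was not rare among comparable peaks. It held for 5 of 5 members, 50% of the other 120 peaks without a noncoding gene (95% exact interval over peaks 40.7% to 59.3%), 31.4% of all 328 other nuclear peaks and 16.3% of the 11212 other regions of the joint list. The rule that named the members used the annotation near the summit but not the direction of the genes. With 5 members selected for signal, no test was made of the difference. ears-2 and idhg-1 had a promoter summit, meaning at most 500 bp before or 100 bp after the start of a protein-coding gene, and K12H4.5 missed that limit by 10 bp. The share with a promoter summit was thus 2 of 5 members, against 75.8% of the other peaks without a noncoding gene and 16.4% of the other joint regions.

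No noncoding gene lay within 2 kb of any member summit. The nearest one was 15202 bp away for K12H4.5 (the noncoding RNA gene K12H4.11), 16876 bp for ears-2 (the snoRNA gene Y66H1B.6) and 9030 bp for nas-30 (the noncoding RNA gene Y95B8A.15). It was 2890 bp away for idhg-1 (the microRNA gene cel-mir-4813) and 53519 bp for lgc-26 (the snoRNA gene F33E11.7). The absence within 500 bp was part of the rule. These distances were not measured for the other peaks, so nothing is read from the absence within 2 kb.

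The member windows were not alike in base composition. In the 151 bp centred on the summit, GC content was 47.0% at K12H4.5, 53.0% at ears-2, 36.4% at nas-30, 41.1% at idhg-1 and 26.5% at lgc-26, a median of 41.1%. The other peaks without a noncoding gene had a median of 42.4% (quartiles 39.1% and 47.7%), all other nuclear peaks 47.0%, and the other joint regions 35.8%. ears-2 was above those quartiles of the peaks without a noncoding gene, and nas-30 and lgc-26 were below. At lgc-26, 117 of the 120 other peaks without a noncoding gene had a GC content at least as high. The order of the members depended on the window. Over the whole called regions, GC content was 32.4% at K12H4.5, 40.5% at ears-2, 41.4% at nas-30, 37.2% at idhg-1 and 27.6% at lgc-26.

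Short words were searched on both strands. The word GCGC was in the 151 bp windows of K12H4.5 (2 times), ears-2 (6 times) and idhg-1 (2 times), as the capitals of the printed sequences show for the parts printed, and in neither nas-30 nor lgc-26. It was also in 69.2% of the windows of the other peaks without a noncoding gene, 60.4% of those of all other nuclear peaks and 22.3% of those of the other joint regions. CGCAAG was in K12H4.5 and ears-2, against 23.3% of the other peaks without a noncoding gene and 2.99% of the other joint regions. GGCGCA, which contains GCGC, was in the same pair, against 18.3% of the other peaks without a noncoding gene and 4.63% of the other joint regions. These 3 words had been noticed in the peaks before they were counted. Other such words were counted too and are not listed here. CACGTG was in idhg-1 only, and in 5% of the other peaks without a noncoding gene and 2.34% of the other joint regions. GAGAG was in K12H4.5 and nas-30, against 25.8% of the other peaks without a noncoding gene and 20.3% of the other joint regions. For TTTTT, found in K12H4.5, idhg-1 and lgc-26, those shares were 80.8% and 85%. TCACGC was in no member window, and in 5.83% of the other peaks without a noncoding gene, 5.18% of all other nuclear peaks and 2.88% of the other joint regions. GGTTCGA, the core of the B box of tRNA genes, was also in none, and in 3.33%, 25.9% and 1.83% of those same sets. At such shares among the peaks without a noncoding gene, nothing is read from 0 of 5. A match is a string of letters, and its absence says only that those letters were not in this window.

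nas-30 and lgc-26 lay in tandem repeats, and the other 3 members in single-copy DNA. Of the 30-base words in the 451 bp around the summit, 100% occurred once in the genome at K12H4.5, ears-2 and idhg-1, against 26.3% at nas-30 and 30.3% at lgc-26. A share under 50% was found at 2 of 5 members, 5.83% of the other 120 peaks without a noncoding gene (7 peaks) and 0.856% of the 11212 other joint regions. With 75 bp on each side of the summit, a window chosen after seeing the data, nas-30 stood at 50% and no longer fell below the limit, while lgc-26 had 27.0%. The count was then 1 of 5 members, against 6 of the other 120 peaks without a noncoding gene. In the 451 bp windows no other nuclear peak had a share as low as that of nas-30, and 1 had a share as low as that of lgc-26. None of the 9 nuclear peaks under 50% had a noncoding gene within 500 bp. How reads that match several places were handled is not given in the sources used here, and its part in the signal of nas-30 and lgc-26 was not tested.

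**Figure D4:**
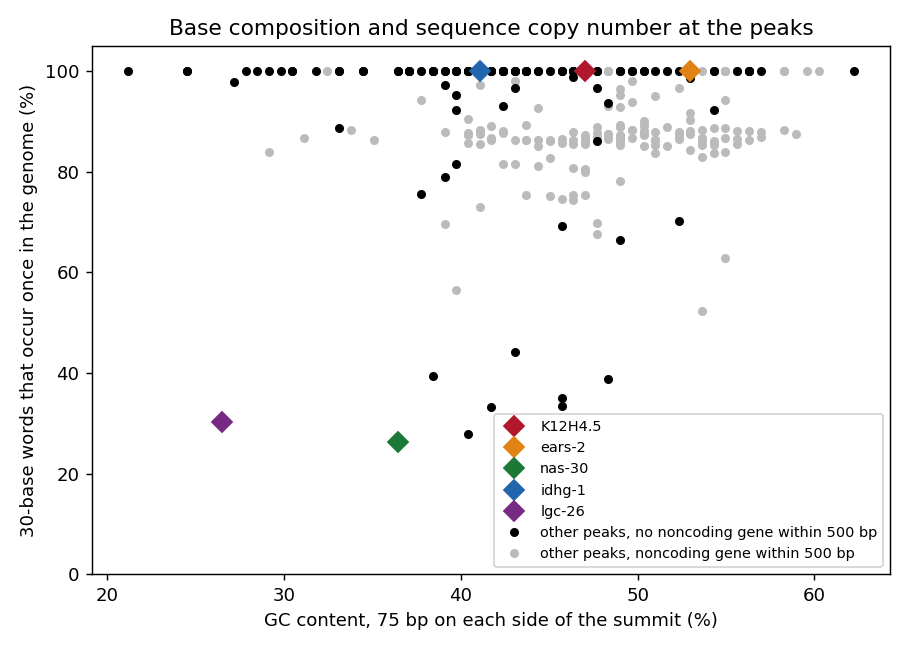
GC content of the 151 bp around the summit (x axis, percent) against the percentage of 30-base words in the surrounding 451 bp that occur once in the genome (y axis), for the 333 nuclear reproducible peaks. Diamonds are the 5 members, black points the other peaks with no noncoding gene within 500 bp and grey points those with one. nas-30 at 26.3% and lgc-26 at 30.3% lie far below K12H4.5, ears-2 and idhg-1, which are at 100%.

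The repeats under nas-30 and lgc-26 had different units. Shifted against itself, the 901 bp around the nas-30 summit matched at 58.5% of bases at a shift of 27 bp, 59.1% at 54 bp and 58.7% at 81 bp. The 901 bp around lgc-26 matched at 77.1% of bases at a shift of 172 bp, the unit printed above. The best match at any shift from 10 to 250 bp was 32.3% at K12H4.5, 31.6% at ears-2 and 33.6% at idhg-1, against a median of 32.6% and a 95th percentile of 43.9% over the other peaks without a noncoding gene. Around the nas-30 summit the repeat ran for about 1390 bp, from 75 bp before the summit. The called nas-30 region began 147 bp before the summit, so it started outside that stretch. Around the lgc-26 summit the repeat ran for about 783 bp, or 4.6 units, from 348 bp before the summit. Among 3 consecutive units, 162 of 172 positions were the same in all 3.

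**Figure D5:**
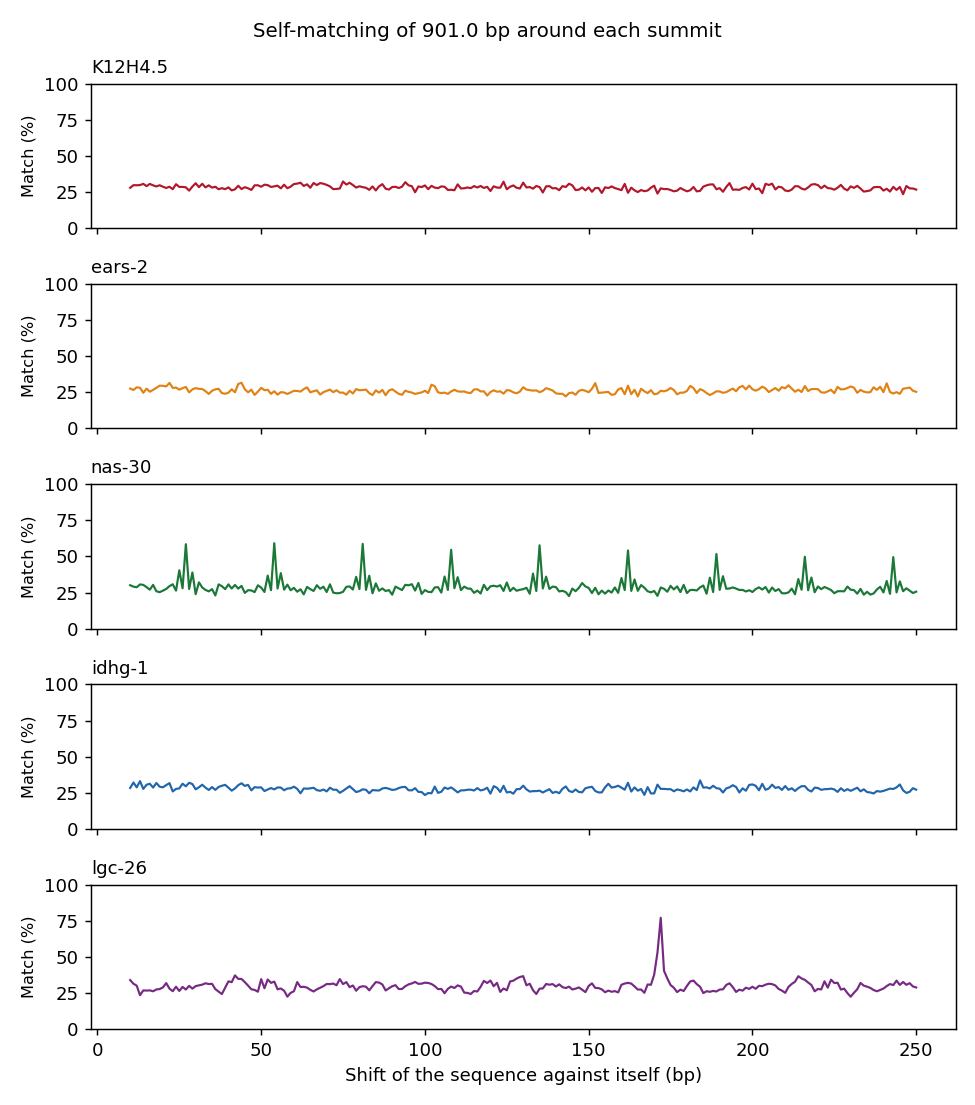
Percentage of matching bases (y axis) when the 901 bp around each member's summit are shifted against themselves by 10 to 250 bp (x axis), 1 panel per member. nas-30 has evenly spaced maxima at multiples of 27 bp and lgc-26 a single maximum of 77.1% at 172 bp, while K12H4.5, ears-2 and idhg-1 stay at or below 33.6%.

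The words of the nas-30 region recurred across the genome, and most of the other places held no reproducible peak. They spread over 1385 bp at their own place and were found at 20 other places on 6 chromosomes. At 13 of these, at least 100 positions began a word of the region, on either strand. A word that recurs within a place counts each time, so this does not measure how many different words are shared. Of those 13 places, 2 had a reproducible peak, 5 (these 2 included) a region of the joint list and 8 none. All 20 other places together spanned 24.2 kb. The share for stretches of like length elsewhere was not counted, so whether 2 is few or many was not tested. The first of the 2 peaks lay on chromosome III at 931547-931658, nearest to fbxa-55, whose 5′ end was 4481 bp away. Its signal was 179.7, rank 73, with 106 and rank 41 in replicate 1 and 73.1 and rank 111 in replicate 2. The second lay on chromosome X at 5056192-5056641, nearest to C24H10.4, 2846 bp away. Its signal was 98.5, rank 237, with 56.6 and rank 196 in replicate 1 and 43.7 and rank 292 in replicate 2. Both matched themselves best at a shift of 27 bp, at 59.2% for fbxa-55 and 63.7% for C24H10.4. Both repeated in each replicate, below the 169 and 163 of nas-30. These peaks were singled out after their values were seen.

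The lgc-26 words spread over 2207 bp at their own place, chromosome V 265049-267255, and were found at 5 other places on 4 chromosomes, none with a region of the joint list. The one other place with at least 100 positions that began such a word was on chromosome X at 292191-295174, with 166. The other 4 had between 2 and 23 such positions. Of the 5 places, 3 lay beside a place of the nas-30 words: on chromosome IV the gap was 183 bp, on chromosome V 103 bp and on chromosome X 102 bp. The remaining 2 were 46282 bp or more from one. These neighbours held few such positions: 2 within 31 bp on chromosome IV, 10 within 39 bp on chromosome V and 23 within 382 bp on chromosome X. Whether the lgc-26 tandem repeat is present there was not tested. No reproducible peak lay on these 3 neighbours or on the nas-30 words beside them. The nas-30 words on chromosome V did overlap 2 regions of the joint list, the higher with a signal of 46.7, rank 1617. The lgc-26 words on chromosome IV overlapped 1 region of replicate 2, with a signal of 14.2, rank 16194. The pattern of neighbours was noticed in the data and has no test.

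Few other genes of the members' families had a reproducible peak. A reproducible peak with its nearest protein-coding 5′ end within 5 kb was found at 1 of 31 aminoacyl-tRNA synthetase genes (ears-2). The count was 1 of 23 isocitrate dehydrogenase and citric acid cycle genes (idhg-1). It was 2 of 36 astacin genes (nas-10 and nas-30) and 2 of 55 lgc channel genes (lgc-21 and lgc-26). Without the members, which were selected for having a peak, 2 of 141 family genes had one, or 1.42%, which is near the 1.53% of all nuclear protein-coding genes and is no result about the families. nas-10 had a signal of 147, rank 110, and lgc-21 a signal of 222, rank 43, and each had 2 noncoding genes within 500 bp of the summit. Counting any 5′ end within 5 kb added fars-1, a phenylalanyl-tRNA synthetase gene whose peak was nearest to mrpl-23, and lgc-13, whose peak was nearest to col-181.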

How the data were processed

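The authors deposited region lists in narrowPeak layout on the builds ce10 and ce11, per the deposited file descriptions: a relaxed list from each replicate and a control, one from both replicates together, and one thresholded on IDR. The deposited lists give each region a signal value of unstated scale, a −log10 q value, used in no test, and the summit's offset from its start. The sources used here name no aligner, peak caller, version or cutoff on IDR, and the control library was not analysed here. Sequencing depth is unknown, because the lists hold no read counts; 95% exact Clopper-Pearson intervals over regions cover counting error only.

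Members and word and family lists were chosen with earlier results of these data known, and no test was made. Ranks follow signal within a list. Overlapping regions were reduced to the strongest, which left 341 of the 354 reproducible peaks, 333 of them nuclear. Peaks were named by the nearest protein-coding 5′ end within 5 kb (Ensembl release 115, WBcel235, the same assembly as ce11), and coordinates are 1-based. A replicate's value is that of its strongest overlapping region. Genes named are the members, the genes flanking them, family genes with a peak, and the next 3 peaks below, plus genes said to be chosen later. Word copies were counted over both strands of the RefSeq genome in Python 3.11.15 with numpy 2.4.6 and pandas 2.3.3, and the functions were tested on simulated sequence. Alternatives were other distances, overlaps, windows, builds and each replicate alone.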

Additional observations from a re-analysis of the deposited data

How the results depend on the processing

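Of 35 alternatives to 11 results, 22 left the value unchanged, 6 changed a count by at most 1.5 times and 7 moved the value further. For GC content, further meant by more than 0.468 percentage points, the SD of the 2 replicates' medians. The medians with 1 replicate's summits were thus judged against a limit made from them. With a limit of 1 kb in place of 5 kb, 3 of 5 members had a reproducible peak, since the nas-30 and lgc-26 summits lie further away. Asking for an overlap of 50% of both regions left 3 members among the highest regions of both replicates. Within 2 kb of the 5′ ends there were 4 regions of the joint list, against 10 within 5 kb. The median GC content of the members was 44.6% in windows of 50 bp on each side and 37.2% over whole regions, and 40.4% to 41.1% with the summits of 1 replicate, against 41.1%. With windows of 75 bp on each side, chosen after seeing the data, 1 member (lgc-26) had under 50% single-copy words, against 2. On ce10, a region with the same signal within 0.1% was found for 4 of 5 members; the region at the rank of lgc-26 had a signal of 251, against 261 on ce11. All 5 summits stayed between divergent genes with either replicate's summit. No paired analysis was possible because there is 1 group and no result comes from a test. The 2 replicates and unknown depth limit the precision, and the signal's scale is unstated.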
